A study of Mus musculus with 12 samples.

Results

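The laminin chains described here are 9 genes, Lama1, Lama2, Lama3, Lama4, Lama5, Lamb1, Lamb2, Lamb3 and Lamc1, out of 25230 genes counted by RNA-seq. They were taken by gene symbol and not by any measured value, and all 9 were listed in every library. The γ chain gene Lamc3 was also counted and is outside the list, so its counts are given only beside it. The libraries came from primary mouse mesangial cells (MMC), the contractile cells that lie between the capillaries of the kidney glomerulus, cultured from wild-type (WT) mice and from lncMGC-KO5 (KO) mice. lncMGC is a long non-coding RNA that hosts a large cluster of microRNAs, and KO5 is a single mouse line in which Cas9 with a pair of guide RNAs, injected into C57BL/6J embryos, removed a short stretch just after the start of lncMGC transcription. MMC of each genotype were either serum-depleted (SD) or given TGF-β at 10 ng/ml for 24 h, which gave 4 groups of 3 libraries each. Where values are listed for the 4 groups without their names, the order is WT-SD, then WT-TGF, then KO-SD, then KO-TGF. The cells were grown from pooled glomeruli, and the sources used here give neither the number nor the age of the mice per genotype nor whether the 3 libraries came from separate cultures, so p-values measure only the spread between these libraries.

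Laminins are large secreted proteins made of one α, one β and one γ chain, which assemble inside the cell and polymerize outside it into the first sheet of a basement membrane. The α chain carries the domains that bind integrins and dystroglycan, and the γ chain binds nidogen, which links laminin to type IV collagen. In the kidney, the trimer of the Lama5, Lamb2 and Lamc1 products is the main laminin of the mature glomerular basement membrane, while Lama1 and Lamb1 products are found in the mesangial matrix.

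Depth was even, between 19898050 and 22827706 counts on genes per library, and replicate libraries of every group differed by more than counting noise (chi-square divided by its degrees of freedom, 1.33 to 5.20, the largest between KO-SD replicates 1 and 2). lncMGC has no row in the counts, so the genotype could not be checked on its own reads. The 5 genes given as a check of the TGF-β treatment (Ccn2, Smad7, Col1a1, Fn1 and Acta2) were higher after TGF-β in both genotypes. Levels are given as CPM, the count of a gene divided by the size of its library in units of 1e+06 counts, with sizes scaled by the trimmed mean of M-values (TMM). Scaling by library size alone moved the median log2 fold change of all genes from -0.01 to -0.18 for TGF-β in WT MMC, from -0.02 to -0.23 for TGF-β in KO MMC, from 0.02 to -0.07 for KO against WT in SD, from 0.00 to -0.12 under TGF-β and from -0.03 to -0.06 for the interaction. It turned the split of genes called higher and lower from 4124 and 4191 to 2533 and 6212 for TGF-β in WT MMC, from 4014 and 4481 to 2315 and 6681 in KO MMC, from 3514 and 2902 to 2267 and 4443 for KO against WT in SD, from 3128 and 3196 to 1657 and 5379 under TGF-β, and from 1006 and 1904 to 789 and 2411 for the interaction. Directions below are relative to the TMM scale, and those that turned are named.

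To compare chains with each other, reads were set against exon length (RPKM, which is CPM per kilobase of exons). In WT-SD, 4 chain mRNAs were abundant: Lamb1 at 76.9 RPKM, Lama5 at 70.7, Lamb2 at 65.3 and Lamc1 at 63.2, so that 1 α, 2 β and 1 γ chain made up nearly all laminin mRNA. The libraries of Lamb2 and Lamc1 overlapped in WT-SD, and those of the other neighbours in this order did not. Lama1 followed at 0.851 RPKM, then Lamb3 at 0.181, Lama2 at 0.177, Lama3 at 0.0621 and Lama4 at 0.0492, where Lamb3 and Lama2 overlapped, as did Lama3 and Lama4. In KO-TGF the order of the abundant chains was Lamc1 at 70.6 RPKM and Lamb1 at 70.5, which overlapped, then Lama5 at 54.4 and Lamb2 at 39.99, which did not. Lamb1 came first in WT-TGF and KO-SD as well, with Lamc1 second and overlapping it only in KO-SD among these 2 groups. Order and overlaps rest on the union of exons as length. With the longest transcript as length, the RPKM ratio of Lamb2 to Lamb1 was 0.535 in WT-SD and 0.357 in KO-TGF. That of Lamb2 to Lamc1 was 1.03 and 0.564, so Lamb1 then stood above Lamc1 in KO-TGF. In WT-SD, Lama5 to Lamc1 was then 1.03 in place of 1.12, and the mean α chain share of Lama4 (0.136%) passed that of Lama3 (0.0879%).

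**Figure D1:**
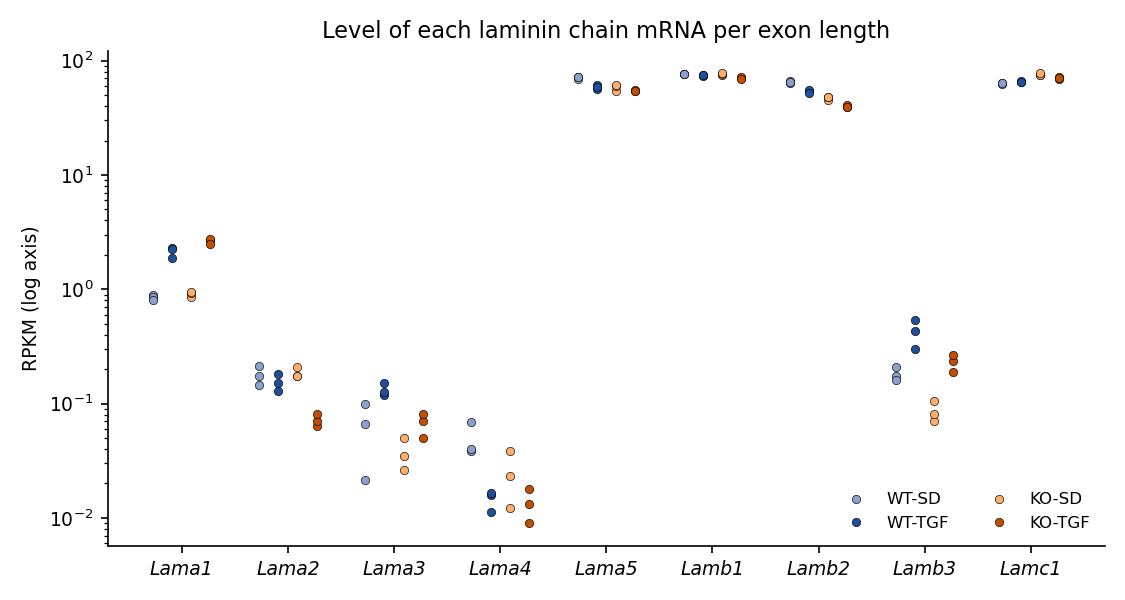
Level of the 9 laminin chain mRNAs in each of the 12 libraries, in RPKM on a log axis; each point is a library, colored by group. Lama5, Lamb1, Lamb2 and Lamc1 sit between 39.3 and 77.7 RPKM in every library, Lama1 between 0.799 and 2.73, and the other 4 chains below 0.6.

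Promoter sequence was at hand for 3 of the abundant chains, Lama5, Lamb2 and Lamb1. The levels of Lama5 and Lamb2 went together over the libraries, and Lamb1 is the alternative to Lamb2 as β chain of the trimer. The bases before the most upstream start annotated by RefSeq or GENCODE on GRCm38.p6 are given, on the strand of the gene. In capitals are CAGAC or its reverse complement GTCTG (a core SMAD-binding motif) and GGGCGG or CCGCCC (a GC box). The stretches cover chr2:180225905-180226109 on the minus strand for Lama5, chr12:31265043-31265145 on the plus strand for Lamb1 and chr9:108479612-108479735 on the plus strand for Lamb2. The Lamb2 stretch ends short of the RefSeq start of the gene, base 108479847.
Lama5: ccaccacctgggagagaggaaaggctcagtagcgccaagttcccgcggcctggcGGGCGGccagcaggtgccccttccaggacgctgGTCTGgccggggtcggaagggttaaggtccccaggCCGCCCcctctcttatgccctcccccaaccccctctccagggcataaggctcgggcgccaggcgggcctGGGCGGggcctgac
Lamb1: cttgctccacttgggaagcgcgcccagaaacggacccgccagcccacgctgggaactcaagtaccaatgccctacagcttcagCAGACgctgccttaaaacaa
Lamb2: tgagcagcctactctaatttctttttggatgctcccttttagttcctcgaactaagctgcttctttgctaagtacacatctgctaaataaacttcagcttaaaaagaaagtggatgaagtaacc
The Lama5 stretch is 71.7% G and C over 205 bases, the Lamb1 stretch 58.3% over 103 and the Lamb2 stretch 37.9% over 124. Lama5 has 1 match of the SMAD motif and 3 of the GC box, where 36.5% and 25.8% of 32544 promoters held at least 1 in a stretch of that length. Lamb1 has 1 match of the SMAD motif, held by 20.4% of promoters at its length, and no GC box, held by 10.9%. Lamb2 has neither in its stretch, where 24.2% and 13.4% of promoters do. The shares of promoters come from the first bases of each promoter sequence, cut to the same length. Those bases were not cut at an annotated start, so length was matched and distance to the start was not. A match is a run of letters and not a measured binding site.

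The counts of called chains come next, with the share of all genes called in the same fit. In WT MMC, TGF-β left 4 of the 9 chains higher (Lama1, Lama3, Lamb3 and Lamc1), 3 lower (Lama4, Lama5 and Lamb2) and 2 not called (Lama2 and Lamb1) at FDR <5%. Of all genes with RPKM >1 in a library, 35.9% were called higher and 36.5% lower, and of all genes with a count, the table in which the chains with few reads were tested, 25.9% and 25.8%. In KO MMC, 3 chains were higher after TGF-β (Lama1, Lama3 and Lamb3), 5 lower (Lama2, Lama5, Lamb1, Lamb2 and Lamc1) and 1 not called, where the share of genes called was 35% higher and 39% lower over the first table and 23.8% and 28.5% over the second. Between genotypes in SD, Lamc1 was higher in KO and Lama5, Lamb2 and Lamb3 were lower, against 30.6% of genes higher and 25.3% lower over the first table and 23.4% and 17.9% over the second. Under TGF-β, Lama1 and Lamc1 were higher in KO, 6 chains were lower and 1 was not called, against 27.3% higher and 27.8% lower over the first table and 18.7% and 20.3% over the second. A difference in TGF-β response between KO and WT was called for 1 chain in the higher direction (Lama5) and 2 in the lower (Lama2 and Lamc1), against 8.76% and 16.6% of genes over the first table and 4.8% and 12.5% over the second. So many genes moved in these libraries that the number of chains called is no result in itself, and the sizes matter more. Changes over 2-fold were few: Lama1, Lama3 and Lamb3 rose and Lama4 fell past 2-fold in WT MMC (4.18% of genes higher and 5.67% lower over the first table, 4.06% and 6.88% over the second), Lama1 and Lamb3 rose and Lama2 fell past it in KO MMC (4.41% and 9.04%, then 3.95% and 9.54%), and between genotypes only Lamb3 in SD (3.12% and 5.42% of genes lower) and Lama2 under TGF-β (4.55% and 6.31%) were more than 2-fold lower in KO.

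**Figure D2:**
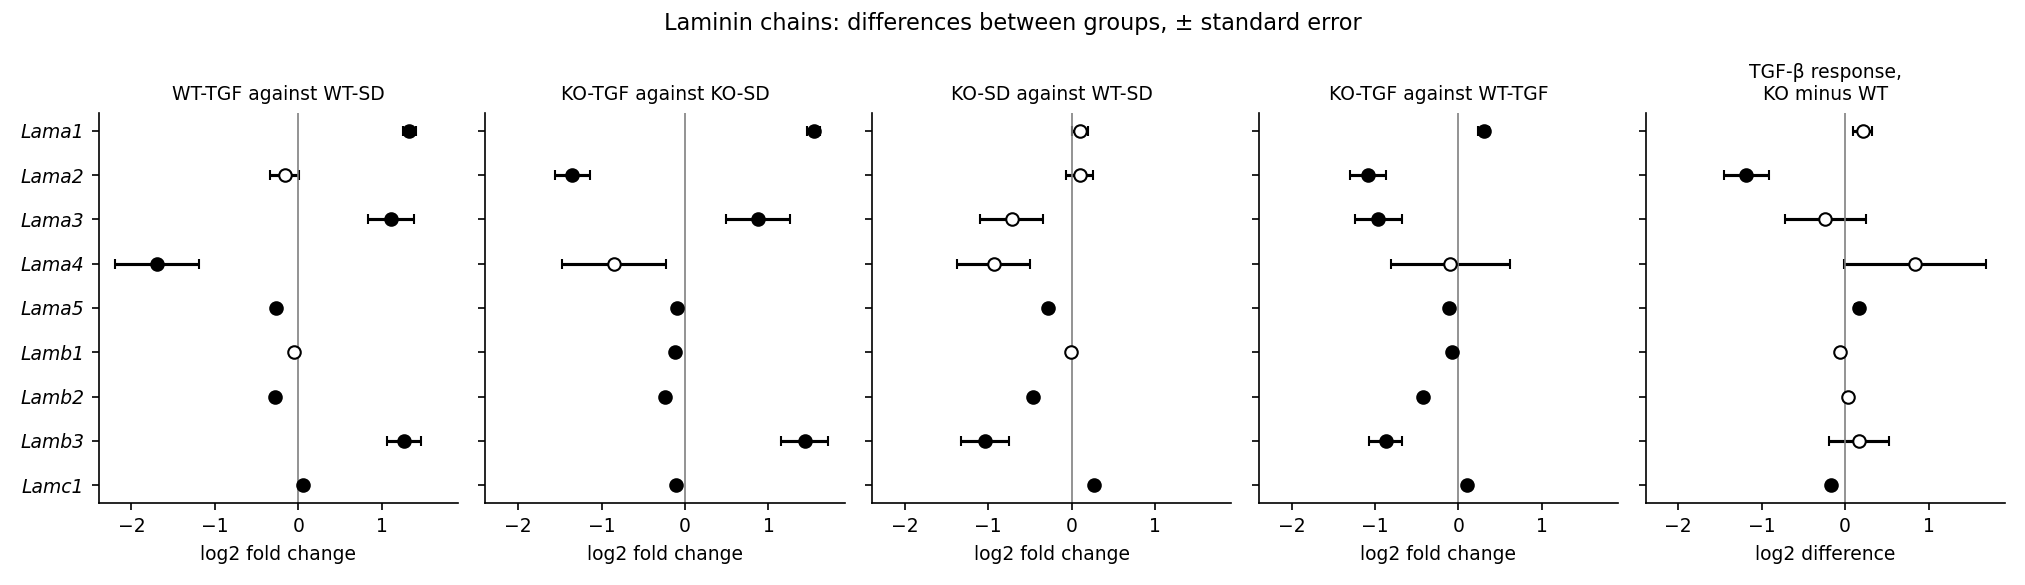
Log2 fold change of each laminin chain in the 4 comparisons of groups, and the TGF-β response of KO minus that of WT on the log2 scale, with bars of 1 standard error; filled points have FDR <5%. The abundant chains (Lama5, Lamb1, Lamb2, Lamc1) stay between -0.47 and 0.26, while Lama1 and Lamb3 lie above 1.2 in both TGF-β comparisons.

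The α chain genes came first in the analysis by role. Lama5 encodes the α chain of the adult kidney basement membranes, on chromosome 2 of GRCm38.p6 (the assembly of mm10), bases 180176373 to 180225904 of the minus strand. It held 98.4% ± 0.124 (SD, n = 3) of the summed α chain RPKM in WT-SD and 95.1% ± 0.201 in KO-TGF. The WT libraries held 815, 783 and 816 CPM of Lama5 in SD against 648, 697 and 667 CPM with TGF-β. The KO libraries held 613, 682 and 696 CPM in SD against 614, 629 and 617 CPM with TGF-β. WT-SD stood above the other 3 groups without overlap, while KO-SD and KO-TGF overlapped. In WT MMC, Lama5 fell by 0.26 on the log2 scale after TGF-β (standard error 0.0326, adjusted p = 2.10e-08), 16.7% lower. In KO MMC the fall was 0.10 (standard error 0.0329, adjusted p = 0.00882), and this call was lost when any 1 of replicates 2 or 3 of KO-SD, or of replicates 1 or 3 of KO-TGF, was left out (adjusted p between 0.0508 and 0.103), and with a correction for exon length (adjusted p = 0.0866). The responses differed between genotypes by 0.17 (standard error 0.0463, adjusted p = 0.00756). In SD, Lama5 was 17.6% lower in KO than in WT (log2 fold change -0.28, adjusted p = 1.32e-08). Under TGF-β it was 7.53% lower (log2 fold change -0.11, adjusted p = 0.00433), a call that was lost without KO-TGF replicate 1 (log2 fold change -0.09, adjusted p = 0.0544).

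Lama1, the α chain of embryonic basement membranes and of the mesangial matrix, lies on chromosome 17, bases 67697127 to 67822645 of the plus strand. It was the chain with the largest TGF-β response among the 5 chains that reached RPKM >1, but it reached that limit only in TGF-β libraries. Lama1 rose from 8.65, 8.34 and 7.73 CPM in the WT-SD libraries to 22.0, 22.0 and 18.1 CPM in those of WT-TGF. In KO MMC it was 8.35, 8.97 and 9.08 CPM in SD and 26.2, 26.5 and 24.2 CPM under TGF-β. The TGF-β libraries stood above the SD libraries in both genotypes, and under TGF-β the KO libraries stood above the WT libraries. The log2 fold change with TGF-β was 1.33 in WT (standard error 0.0815, adjusted p = 2.91e-15), 152% higher, and 1.54 in KO (standard error 0.0796, adjusted p = 3.38e-17), 191% higher. The difference between these responses was 0.21 with a 95% interval from -0.02 to 0.44 (adjusted p = 0.212) and was not called. KO was higher than WT under TGF-β by 0.30 (standard error 0.0680, adjusted p = 3.47e-04), 23.4% higher, and in SD the genotypes overlapped (log2 fold change 0.09, 95% interval -0.09 to 0.28, adjusted p = 0.422). In the summed α chain RPKM, Lama1 went from 1.19% to 3.49% with TGF-β in WT and from 1.53% to 4.62% in KO, so that Lama5 mRNA per length exceeded Lama1 mRNA by 83.2 to 1 in WT-SD, 27.7 to 1 in WT-TGF, 64.0 to 1 in KO-SD and 20.6 to 1 in KO-TGF.

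**Figure D3:**
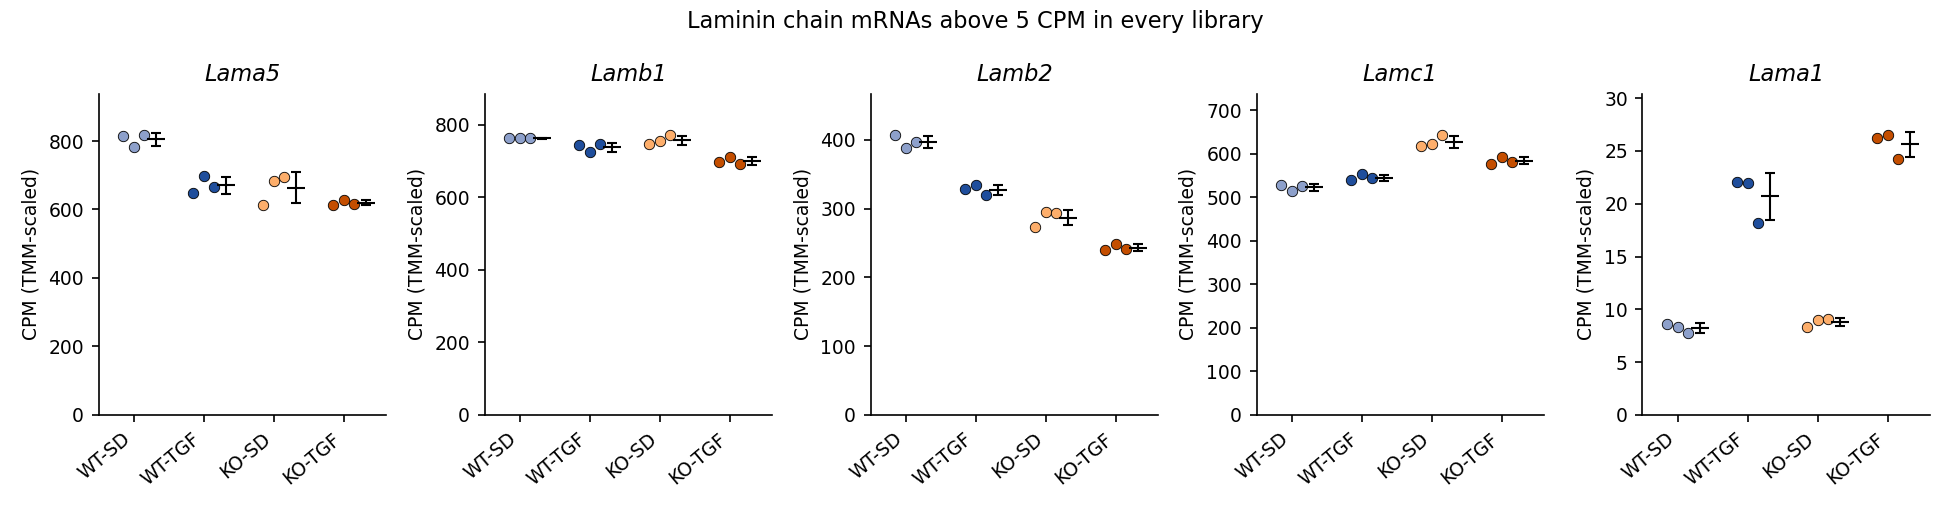
TMM-scaled CPM of the 5 laminin chain mRNAs above 5 CPM in every library, by group, on axes from 0; points are libraries, and the bar beside them is the mean ± SD of 3. Lama5 and Lamb2 are highest in WT-SD, Lamc1 is highest in KO-SD, and Lama1 rises from 7.73 to 9.08 CPM in SD libraries to 18.1 to 26.5 CPM in TGF-β libraries.

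Lama2 encodes the α chain of muscle and peripheral nerve basement membranes, whose loss causes a congenital muscular dystrophy. It lies on the minus strand of chromosome 10, bases 26981285 to 27617191. Reads of Lama2 were few, 75, 54 and 61 in WT-SD, 44, 55 and 59 in WT-TGF, 61, 69 and 61 in KO-SD and 19, 21 and 25 in KO-TGF. KO-TGF lay below all 9 other libraries, and the other 3 groups overlapped each other. Lama2 fell by 1.35 on the log2 scale with TGF-β in KO MMC (standard error 0.206, adjusted p = 2.02e-10), with means of 3.02 ± 0.312 and 1.17 ± 0.152 CPM (SD, n = 3). For WT the means were 2.89 ± 0.547 and 2.52 ± 0.424 CPM (log2 fold change -0.17, 95% interval -0.49 to 0.16, adjusted p = 0.455). The difference between the responses was -1.18 (standard error 0.270, adjusted p = 1.45e-04), the largest of the 9 chains that was called, and under TGF-β Lama2 was 53.0% lower in KO than in WT (log2 fold change -1.09, standard error 0.215, adjusted p = 1.96e-06). For a gene with so few reads, the mean of 1.17 CPM rests on 65 reads in 3 libraries.

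Lama3, an α chain of epithelial basement membranes on chromosome 18, had 23, 16 and 5 reads in WT-SD, 34, 28 and 27 in WT-TGF, 6, 11 and 8 in KO-SD and 14, 16 and 10 in KO-TGF. The WT libraries of the treatments did not overlap, and those of KO did. Lama3 rose with TGF-β in WT (log2 fold change 1.11, standard error 0.278, adjusted p = 1.63e-04). In KO the log2 fold change was 0.87 (standard error 0.383, adjusted p = 0.0420), and it was no longer called without any 1 of WT-SD replicate 2, KO-SD replicates 1 or 3, or KO-TGF replicates 1 or 2 (adjusted p between 0.0734 and 0.173), by DESeq2 (adjusted p = 0.120), with scaling by library size alone (adjusted p = 0.138) or when genes under CPM >1 in 3 libraries were dropped (adjusted p = 0.0561). Under TGF-β, Lama3 was lower in KO by 0.96 (standard error 0.286, adjusted p = 0.00264), and DESeq2 did not call this (adjusted p = 0.0738). In SD the genotypes overlapped (log2 fold change -0.72, adjusted p = 0.114), and without WT-SD replicate 3, the library with 5 reads, Lama3 was called lower in KO (log2 fold change -1.11, adjusted p = 0.0104). Leaving out 1 library at a time moved this value between -1.11 and -0.23, the latter without WT-SD replicate 1.

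Lama4 encodes the α chain of vessel wall and muscle basement membranes and lies on the plus strand of chromosome 10, bases 38965515 to 39110188. It had the fewest reads of the 9 chains, 10, 11 and 18 in WT-SD, 4, 3 and 4 in WT-TGF, 10, 3 and 6 in KO-SD and 4, 2 and 3 in KO-TGF. In WT MMC it fell by 1.69 with TGF-β (standard error 0.504, adjusted p = 0.00151), without overlap of the libraries. In KO MMC the log2 fold change was -0.85 with a 95% interval from -2.08 to 0.38 (adjusted p = 0.258). KO against WT in SD gave -0.94 (adjusted p = 0.0723), which was called without KO-SD replicate 1 (log2 fold change -1.41, adjusted p = 0.0250) and with scaling by library size alone (adjusted p = 0.0408). A floor of 3 counts was used for detection, and with TGF-β all 6 libraries lay within 1 count of it, so a difference between genotypes there was not detectable at this depth.

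**Figure D4:**
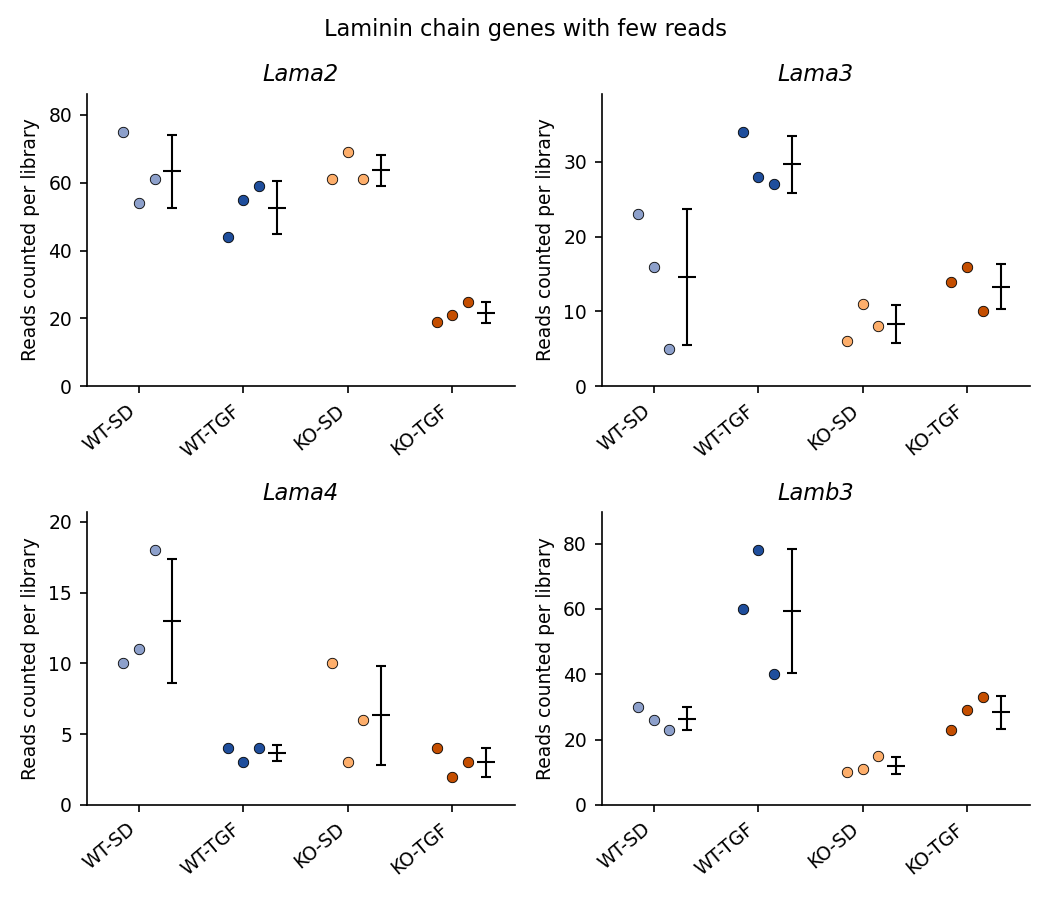
Reads counted per library for the 4 laminin chains with few reads (Lama2, Lama3, Lama4, Lamb3) by group; points are libraries, and the bar beside them is the mean ± SD of 3. Lama2 drops to 19 to 25 reads in KO-TGF alone, and Lamb3 is higher with TGF-β and lower in KO.

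Of the β chains, Lamb1 and Lamb2 are alternatives that share the same place in the trimer. Lamb1 is the widespread β chain of developing basement membranes and lies on chromosome 12, bases 31265146 to 31329644 of the plus strand. It was the steadiest abundant chain: the 12 libraries ran from 691 to 770 CPM. Lamb1 was 763, 762 and 762 CPM in WT-SD, 744, 724 and 746 in WT-TGF, 746, 754 and 770 in KO-SD and 697, 711 and 691 in KO-TGF. The KO-TGF libraries were the lowest and overlapped no other group. With TGF-β in KO, Lamb1 fell by 0.11 (standard error 0.0223, adjusted p = 3.76e-05), 7.60% lower. In WT the log2 fold change was -0.05 (standard error 0.0222, adjusted p = 0.0568), on the edge of the threshold: DESeq2 called it (adjusted p = 0.0215), as did a fit of only the groups compared (adjusted p = 0.0284), the fit without any 1 of KO-SD replicates 1 or 3 or the 3 KO-TGF replicates (adjusted p between 0.0150 and 0.0498) and the scaling by library size alone (log2 fold change -0.21). The responses differed by -0.07 (adjusted p = 0.127), called without KO-SD replicate 1 (adjusted p = 0.0438) and with scaling by library size alone (adjusted p = 0.0179). KO against WT was -0.01 in SD (95% interval -0.05 to 0.03), where scaling by library size alone gave a called -0.10 (adjusted p = 3.17e-04), and -0.08 under TGF-β (adjusted p = 0.00400), a call that was lost without KO-TGF replicate 1 (adjusted p = 0.0664) or replicate 3 (adjusted p = 0.0954).

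Lamb2 is the β chain that replaces Lamb1 in the maturing glomerular basement membrane, and its loss causes a congenital nephrotic syndrome. The gene lies on chromosome 9, bases 108479847 to 108490530 of the plus strand. Its levels were 406, 388 and 396 CPM in WT-SD, 328, 335 and 319 in WT-TGF, 274, 294 and 293 in KO-SD and 239, 249 and 242 in KO-TGF. No 2 groups overlapped, and they stepped down in that order. In SD, Lamb2 was 27.7% lower in KO than in WT (log2 fold change -0.47, standard error 0.0284, adjusted p = 5.45e-15), the largest difference between genotypes among the abundant chains, and under TGF-β it was 25.7% lower (log2 fold change -0.43, standard error 0.0292, adjusted p = 9.23e-14). TGF-β lowered it by 0.28 in WT (standard error 0.0282, adjusted p = 3.81e-10) and by 0.24 in KO (standard error 0.0293, adjusted p = 1.67e-08). The responses differed by 0.04 with a 95% interval from -0.04 to 0.12 (adjusted p = 0.535). Fewer cells with Lamb2 mRNA and less of it per cell cannot be told apart in these bulk libraries.

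Since Lamb2 fell and Lamb1 moved little, the β chain makeup shifted. Lamb1 held 54.0% ± 0.548 (SD, n = 3) of the summed β chain RPKM in WT-SD, 57.8% ± 0.994 in WT-TGF, 61.8% ± 0.722 in KO-SD and 63.7% ± 0.289 in KO-TGF, and no 2 of these groups overlapped. The ratio of Lamb2 to Lamb1 mRNA per length went from 0.849 in WT-SD through 0.724 and 0.618 to 0.567 in KO-TGF. Which β chain has more mRNA per length did not depend on the exon length used, but the size did: with the length of the longest transcript in place of the union of exons, the Lamb1 share was 65.1%, 68.5%, 71.9% and 73.5% in the same order. The summed α chain RPKM was 71.8, 61.3, 59.4 and 57.2 over the 4 groups, the summed β chain RPKM 142, 129, 124 and 111, and Lamc1 63.2, 65.9, 75.9 and 70.6.

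**Figure D5:**
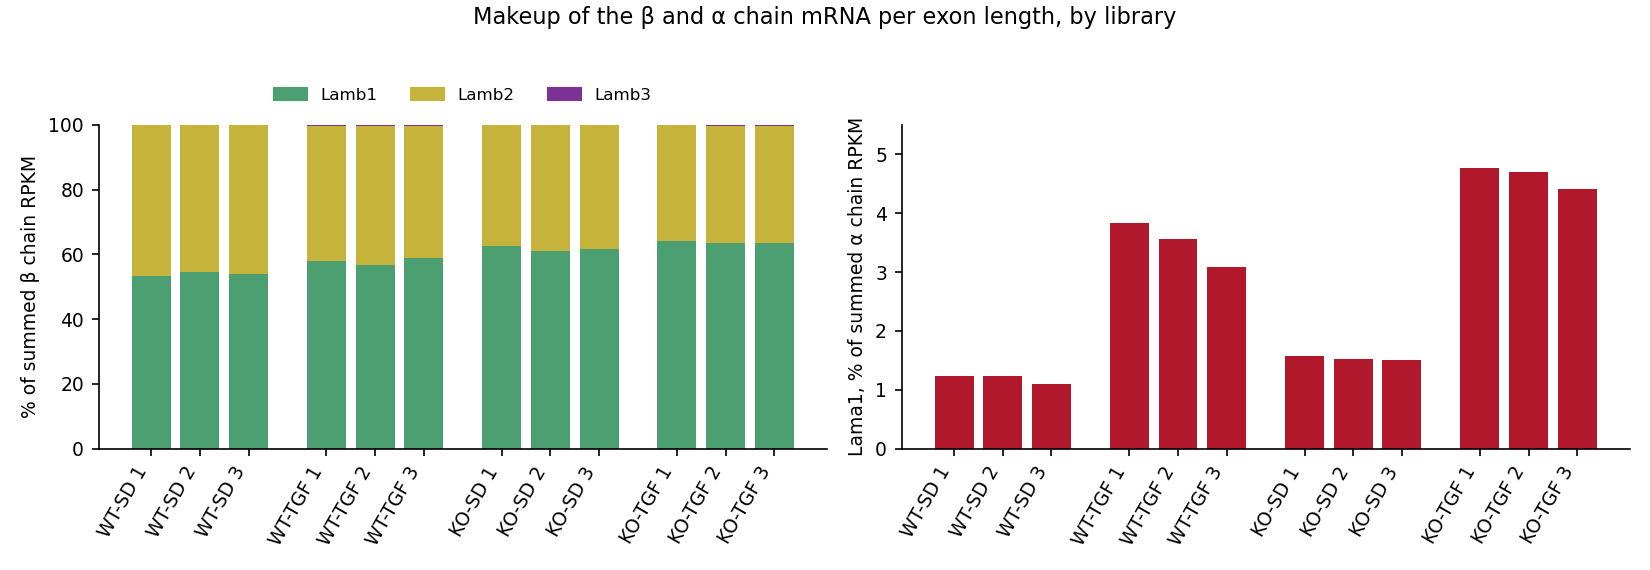
Left, share of Lamb1, Lamb2 and Lamb3 in the summed RPKM of the 3 β chain genes in each library; right, share of Lama1 in the summed RPKM of the 5 α chain genes. The Lamb1 share runs from 53.5% in the lowest WT-SD library to 64.0% in the highest KO-TGF library, and the Lama1 share is 1.10% to 1.57% in SD and 3.09% to 4.76% with TGF-β.

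Lamb3 is the β chain of the epidermal anchoring laminin, in which the Lama3 product is the α chain. The gene lies on chromosome 1, bases 193294353 to 193343878 of the plus strand. Lamb3 had 30, 26 and 23 reads in WT-SD, 60, 78 and 40 in WT-TGF, 10, 11 and 15 in KO-SD and 23, 29 and 33 in KO-TGF. In both genotypes the TGF-β libraries stood above the SD libraries, and in both conditions the KO libraries stood below the WT libraries. The log2 fold change with TGF-β was 1.27 in WT (standard error 0.201, adjusted p = 1.15e-09) and 1.43 in KO (standard error 0.285, adjusted p = 1.34e-06), and their difference was 0.17 with a 95% interval from -0.55 to 0.88. KO was lower than WT by 1.04 in SD (standard error 0.292, adjusted p = 0.00118) and by 0.87 under TGF-β (standard error 0.199, adjusted p = 5.19e-05). Lama3 and Lamb3 were thus both called higher with TGF-β in each genotype, at levels under 0.6 RPKM, with the limit given above for Lama3 in KO.

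Lamc1 is the γ chain of most laminins and lies on the minus strand of chromosome 1, bases 153218922 to 153332786. It was 529, 515 and 525 CPM in WT-SD, 540, 553 and 543 in WT-TGF, 618, 623 and 642 in KO-SD and 577, 592 and 581 in KO-TGF. No 2 groups overlapped, and both KO groups lay above both WT groups. In SD, Lamc1 was 20.01% higher in KO (log2 fold change 0.26, standard error 0.0232, adjusted p = 3.49e-11), the only chain called higher there. Under TGF-β it was 7.06% higher (log2 fold change 0.10, standard error 0.0233, adjusted p = 6.39e-04). Scaling by library size alone turned this to -0.02. TGF-β moved it up by 0.06 in WT (standard error 0.0233, adjusted p = 0.0217) and down by 0.10 in KO (standard error 0.0232, adjusted p = 1.88e-04), a difference between responses of -0.16 (standard error 0.0329, adjusted p = 2.55e-04). The rise in WT was small and not firm: it became -0.11 with scaling by library size alone, and it was not called without WT-SD replicate 2, WT-TGF replicate 2 or any 1 of the KO-TGF replicates (adjusted p between 0.0870 and 0.106). Set against Lamc1, the Lamb2 mRNA per length was 1.03, 0.817, 0.622 and 0.567 and the Lama5 mRNA per length 1.12, 0.893, 0.768 and 0.772 over the 4 groups. Lamc3, a γ chain gene outside the list, had 2 to 12 reads in any library.

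The levels of Lama5 and Lamb2 went together over the 12 libraries (Pearson r = 0.917 of log2 CPM), as a description of libraries that share group, scaling and depth. Their promoter stretches, printed above, differ in G and C content (71.7% and 37.9%), but they do not lie at like positions. That of Lama5 reaches the RefSeq start of its gene, and that of Lamb2 ends short of it. Lamc1 ran against both (r = -0.594 with Lama5 and -0.710 with Lamb2), and Lama1 ran against Lamb1 (r = -0.849). Among all genes with RPKM >1 in a library, the pattern most like that of Lama5 was that of Plxnb1 (r = 0.972), then Tbc1d22a (r = 0.969). Nearest to Lamb2 was Gabbr1 (r = 0.991), at 42.1, 33.7, 30.0 and 25.1 CPM over the 4 groups. The nearest to Lamb1 were Pelo (r = 0.970) and Qpct (r = 0.968), to Lamc1 Peg10 (r = 0.968) and E2f8 (r = 0.968), and to Lama1 Exoc1 (r = 0.996) and Smurf1 (r = 0.993).

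Receptors for laminin formed the first list of related genes, together with Sgcb, Sgce, Sspn and Utrn of the dystroglycan complex, which are not laminin receptors themselves. Of the 14 genes in this list, 13 were tested. TGF-β left 9 of them lower and 3 higher in each genotype, where 36.5% of all genes were lower and 35.9% higher in WT and 39% and 35% in KO, with a median log2 fold change of -0.34 in WT and -0.40 in KO, where all genes had -0.01 and -0.02. Dag1, which encodes dystroglycan and binds the end of laminin α chains, was 2106 ± 32.3, 853 ± 12.8, 1596 ± 24.0 and 705 ± 5.39 CPM (SD, n = 3) over the 4 groups. It fell with TGF-β, with log2 fold changes of -1.30 in WT and -1.18 in KO (adjusted p = 7.45e-30 and 8.44e-29). Itga1, an integrin subunit for collagen and laminin, fell in both genotypes and was 354, 128, 350 and 102 CPM over the 4 groups. The 3 receptors called higher in WT were the integrin subunits Itgb1, Itga2 and Itga7, and in KO they were Itgb1, Itga2 and Rpsa. Itgb1, the β subunit that pairs with the α subunits named here, rose in both genotypes (log2 fold changes 1.21 and 1.19) and was 1977, 4582, 2393 and 5452 CPM over the 4 groups. Rpsa had 2.41 to 4.35 CPM and has many near-identical copies, so its counts are uncertain.

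Between genotypes in SD, 6 genes of the receptor list were lower and 4 higher in KO, where 25.3% of all genes were lower and 30.6% higher. Under TGF-β the counts were again 6 and 4, where 27.8% of genes were lower and 27.3% higher, but the genes counted were not all the same. Utrn was lower in KO in SD by 0.09 on the log2 scale (adjusted p = 0.00120) and higher under TGF-β by 0.10 (adjusted p = 6.45e-04). Bcam, a surface receptor for the Lama5 chain, was 30.4, 12.7, 10.2 and 2.45 CPM over the 4 groups, a log2 fold change of -1.57 in SD (adjusted p = 4.51e-19) and -2.37 under TGF-β (adjusted p = 4.89e-18) for KO against WT. Its mean was lowest in KO-TGF, as that of Lama5 was, and its fall with TGF-β was larger in KO (difference between responses -0.81, adjusted p = 3.49e-05). Itga2 was lower in KO by 1.14 in SD and 1.21 under TGF-β, and Itga3, the α subunit of a main receptor for Lama5 trimers, was 146, 129, 96.3 and 68.1 CPM over the 4 groups, with a difference between responses of -0.32 (adjusted p = 1.43e-05). The 4 higher in KO were Itga7, Itgb1, Sgcb and Sgce in SD and Itgb1, Rpsa, Sgce and Utrn under TGF-β. The interaction called 2 genes of the list higher (Dag1 and Utrn) and 5 lower (Bcam, Itga1, Itga3, Sgcb and Sspn), against 8.76% and 16.6% of genes.

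Matrix partners of laminin formed the second list, together with the type IV collagen genes Col4a1 and Col4a2, whose products are linked to laminin by nidogen. Of its 13 genes, 12 were tested, and all 12 were called with TGF-β in each genotype. In WT, 6 were higher and 6 lower. In KO, 5 were higher (Col4a1, Col4a2, Fbln2, Hspg2 and Smoc2) and 7 lower, against the same shares of genes as for the receptors. Nid2, a nidogen, was 71.9 ± 3.39, 9.20 ± 0.112, 97.8 ± 3.33 and 9.17 ± 0.759 CPM over the 4 groups and fell with TGF-β, with log2 fold changes of -2.97 in WT and -3.41 in KO (adjusted p = 4.04e-28 and 8.18e-30). Nid1, the nidogen that bridges the Lamc1 chain to type IV collagen, was 503, 417, 1057 and 890 CPM over the 4 groups. KO was higher by 1.07 in SD (adjusted p = 1.37e-26) and 1.09 under TGF-β (adjusted p = 1.12e-26), so Nid1 and Lamc1 were both higher in KO, Nid1 by over 2-fold and Lamc1 by 20.01% and 7.06%. In all, 9 partners were higher and 2 lower (Ntn4 and Smoc1) in KO in SD (30.6% and 25.3% of genes), with a median of 0.35, and 8 were higher and 3 lower (Agrn, Ntn4 and Smoc1) under TGF-β (27.3% and 27.8% of genes), with a median of 0.38. Fbln2, a fibulin, was 363, 1053, 763 and 1665 CPM, Smoc1 was 53.4, 64.6, 33.4 and 28.8 CPM, and Fbln1 was 4.16, 2.35, 11.97 and 3.39 CPM in the same order. The interaction called 5 higher (Col4a1, Col4a2, Hspg2, Ntn4 and Smoc2) and 5 lower (Agrn, Fbln1, Fbln2, Nid2 and Smoc1), against 8.76% and 16.6% of genes.

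Markers of the cells that a mesangial culture could hold moved with the groups. Of 10 mesangial and smooth muscle markers, all had over 3 reads in every library of WT-SD, WT-TGF and KO-SD, and 9 in those of KO-TGF. Their summed level, nearly all of it from Acta2, Tagln and Vim, was 4645 to 4835 CPM in WT-SD, 9109 to 9365 in WT-TGF, 7781 to 7820 in KO-SD and 15415 to 15582 in KO-TGF. Of the 9 that were tested, 8 were higher and 1 lower (Des) in KO in SD, and 7 were higher and 2 lower (Des and Pdgfrb) under TGF-β. Of all genes with RPKM >1 in a library, 30.6% were higher and 25.3% lower in KO in SD. Under TGF-β these shares were 27.3% and 27.8%, and they apply to the other tested markers below as well. The log2 fold change of Pdgfrb for KO against WT under TGF-β was -0.10 (adjusted p = 0.00112). Des, which encodes the intermediate filament desmin, went against the sum at 7.80, 5.70, 0.537 and 0.251 CPM over the 4 groups (log2 fold change of KO against WT -3.85 in SD and -4.47 under TGF-β). Itga8, tested among all genes with a count, was lower in KO by 1.32 under TGF-β. Of 5 podocyte markers, Nphs1, which encodes a slit diaphragm protein, and Ptpro, a podocyte phosphatase, had at most 3 reads in any library. The other 3 (Podxl, Wt1 and Synpo) were lower in KO than in WT in both conditions, as Lama5, Lamb2 and Lamb3 were, and the 5 markers summed to 447 to 454 CPM in WT-SD, 454 to 472 in WT-TGF, 217 to 225 in KO-SD and 206 to 221 in KO-TGF. With TGF-β, Synpo rose in both genotypes (log2 fold changes 0.34 in WT and 0.11 in KO), while Podxl and Wt1 fell in both. The 7 macrophage markers summed to 36.0 to 39.97 CPM in WT-SD, 19.2 to 22.9 in WT-TGF, 8.26 to 9.92 in KO-SD and 2.33 to 2.72 in KO-TGF. This sum had the order of Lamb2, but not every marker in it did: Cd14 was 11.1, 3.39, 6.85 and 1.35 CPM over the 4 groups. The 12 epithelial markers, with Aqp2 and Umod at 0, summed to 47.8 to 50.8, 15.1 to 16.2, 20.4 to 23.3 and 10.0 to 11.1 CPM. Most of that sum in WT was Lrp2, at 43.4, 11.9, 10.98 and 3.33 CPM over the 4 groups, and of the 3 tested, 2 (Aqp1 and Krt19) were higher and 1 lower in KO in SD, while 1 (Krt19) was higher and 2 lower under TGF-β. The 6 endothelial markers summed to at most 1.03 CPM. The part of these cells in the laminin results was not tested.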

How the data were processed

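The authors used TopHat for alignment of single-end reads from mRNA libraries (build mm10) and HTSeq for counting on the sense strand of RefSeq genes. The deposited values are raw counts per gene, neither normalized nor filtered. Reads outside annotated exons (10.3% to 15.4% of a library), with several alignments (11.2% to 11.7%) or on overlapping genes (0.225% to 0.274%) were left out here. Groups were taken from the sample labels.

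Counts were tested with the quasi-likelihood test of edgeR 4.0.16 (R 4.3.3) after TMM scaling, in a fit of all 12 libraries with a mean per group and Benjamini-Hochberg adjustment over all genes tested (FDR <5%). As in the methods of the study, genes with RPKM >1 in at least 1 library were tested, 11478 genes. Lama2, Lama3, Lama4, Lamb3 and Lamc3 were below this limit and were tested in a second fit, of the 18565 genes with any count. Exon lengths were the union of GENCODE exons on GRCm38.p6, matched for 24407 genes by symbol and 312 by gene ID or older symbol, with 511 unmatched. An exact permutation test of 3 against 3 libraries cannot go below p = 0.1. The scripts were tested on simulated data. The interaction compares the log2 responses to TGF-β, with WT subtracted from KO.

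The genes named are all 9 chains and Lamc3, for each list the 2 genes with the largest called change in each comparison and those needed to name a count of 5 or fewer, and the 2 genes most like each tested chain. Results for some genes that meet this rule, and for a list and markers that hold them, are not reported here. The chains and lists were chosen with earlier results of these data known. Alternatives were scaling by library size or DESeq2 1.42.0, filters on low counts, a correction for exon length, a fit of only the groups compared, a block for the replicate number, the longest transcript as length and leaving out each library.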

Additional observations from a re-analysis of the deposited data

Results flagged for a closer look

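The TGF-β responses of 3 laminin chains differed between the genotypes by the test of the difference itself (edgeR's quasi-likelihood test, n = 3 libraries per group). For Lama2 the response in KO minus that in WT was -1.18 on the log2 scale (adjusted p = 1.45e-04), with all 3 KO-TGF libraries below the other 9. For Lama5 it was 0.17 (adjusted p = 0.00756): the fall was larger in WT, and the KO-SD libraries overlapped those of WT-TGF. For Lamc1 it was -0.16 (adjusted p = 2.55e-04), a rise in WT whose direction rests on the scaling and a fall in KO. Of all genes tested, the interaction called 8.76% higher and 16.6% lower in the table with RPKM >1, and 4.80% higher and 12.5% lower in the table of all genes with a count, in which Lama2 was tested.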

How the results depend on the processing

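Over 45 comparisons of a chain and 19 alternatives, 797 of 846 values kept their direction and side of the threshold, 22 lost a call, 15 gained one and 12 changed sign. Of 30 called comparisons, 23 held under every alternative tried. Scaling by library size alone gave 5 chains lower with TGF-β in WT, where 6212 of 11529 genes with RPKM >1 were lower. It gave 5 chains lower in KO in SD (4443 of those genes lower) and 1 higher in KO under TGF-β (1657 of those genes higher). It turned Lamc1 to -0.11 with TGF-β in WT and to -0.0204 for KO against WT under TGF-β, and Lama2 in SD to -0.0082; the causes were not tested. Lamb1 for KO against WT in SD, near 0, became 0.0199 without a filter, 0.0022 with CPM >1 in at least 3 libraries and 0.0094 with the exon length correction.

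Leaving out 1 library gave 3 to 4 chains higher and 3 to 4 lower with TGF-β in WT, and 2 to 3 and 4 to 5 in KO. For KO against WT it gave 1 and 3 to 4 in SD and 2 and 4 to 6 under TGF-β. The interaction gave 1 and 2 to 3. Of 11437 to 11488 genes with RPKM >1, 3926 to 4216 were then higher and 3972 to 4371 lower with TGF-β in WT. In KO the numbers were 3858 to 4074 and 4107 to 4477. KO against WT gave 3183 to 3509 and 2616 to 3184 in SD, and 2846 to 3246 and 2708 to 3304 under TGF-β. For the interaction they were 884 to 1317 and 1384 to 2029. Signs turned only where no call was made: KO against WT ran from -0.0308 to 0.25 for Lama2 in SD and from -0.354 to 0.12 for Lama4 under TGF-β, and the interaction from -0.73 to 0.16 for Lama3 and from -0.0186 to 0.38 for Lamb3. With the longest transcript as exon length, Lama5 held 98.2% of α chain RPKM in WT-SD and 97.8% in KO-SD, and Lamb1 65.1%, 68.5%, 71.9% and 73.5% of β chain RPKM over the 4 groups.

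Same-numbered libraries were at most weakly alike: the correlation of their deviations ran from -0.0283 to 0.0866 over 18 pairs. The median was 0.0232, against -0.0092 for pairs with other numbers, and 10 of 12 libraries correlated best with their own number. With a replicate block, 4 chains were higher and 4 lower with TGF-β in WT (Lamb1 at -0.05, adjusted p = 0.0447, was added), 3 and 5 in KO, 1 and 3 for KO against WT in SD, 2 and 6 under TGF-β, and 1 and 2 for the interaction. Of 11478 genes with RPKM >1, the block called 4177 higher and 4250 lower with TGF-β in WT, and 4054 and 4529 in KO. For KO against WT it called 3633 and 2982 in SD and 3210 and 3269 under TGF-β, and for the interaction 1109 and 2064. Depth limits Lama2, Lama3, Lama4 and Lamb3, with at most 78 reads in a library.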
